A study of Rattus norvegicus with 30 samples.

Results

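Acyl-CoA thioesterases and acyl-CoA synthetases were followed in rat liver as 9 genes: the thioesterases *Acot2*, *Acot4*, *Acot8* and *Acot12*, the long-chain synthetases *Acsl1*, *Acsl3*, *Acsl4* and *Acsl5*, and the medium-chain synthetase *Acsm3*. Every probe set annotated to one of these symbols was taken, and no measured value entered that choice, although the symbols were listed with earlier results of these data known. The 9 genes had 15 probe sets of the 31099 on the array. A filter on dim probe sets kept 14 of the 15, and 18625 of all probe sets, which stood for 10699 genes. A gene is described by its tested probe set of highest mean, and its other probe sets are given beside it.

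The livers came from 30 male Sprague-Dawley rats, 5 on each of 6 diets, with 1 Affymetrix array per animal. The rats were 4 weeks old on arrival, ate a non-purified diet for 5 days of adaptation and then an experimental diet for 14 days, each diet supplying 200 g/kg of protein. In T10 tofu and casein supplied 100 g/kg of protein each, and in T20 freeze-dried tofu supplied all 200 g/kg. SI held soy protein with added isoflavones and S held soy protein without them. CI held casein with added isoflavones, and C, casein alone, was the control. Isoflavone was added to CI and SI in the amount that T20 contained. Values are log2 of the deposited intensity, differences are log2 differences ± SE with 5 livers per diet, and adjusted p-values are from limma over all tested probe sets of a comparison. Median intensities of the arrays were 216.9 to 254.7, and precision is limited by how many arrays there were. The tissue label was checked on hepatocyte markers: 8 of 9 listed markers were named on the array, all 8 passed the filter, and their means were 14.50 (*Apob*) to 16.64 (*Alb*).

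A fatty acid enters metabolism when a synthetase joins it to coenzyme A, and a thioesterase reverses that step by hydrolysing the thioester. The long-chain synthetases differ in where they sit and which fatty acids they prefer, and in liver they feed oxidation, phospholipids and triglycerides. The thioesterases are spread over mitochondria, peroxisomes and cytosol, and several of them are known in rodents as targets of the fatty acid receptor PPAR-alpha.

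Of the 9 genes, 4 differed over the 6 diets by limma's moderated F test: *Acot2* (adjusted p = 0.000285), *Acot4* (0.00313), *Acsl4* (7.48e-08) and *Acsl5* (7.24e-05). Over all tested probe sets 12.9% passed the same test, and *Acsl4* ranked 16 of 18625 by its p. *Acsm3* had an adjusted p of 0.0599, and *Acot8*, *Acot12*, *Acsl1* and *Acsl3* had 0.343 to 0.475. In bulk liver, fewer cells of a type and less RNA per cell cannot be told apart in any of these values.

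Against C, T20 livers had 1 gene higher (*Acsm3*) and 3 lower (*Acot2*, *Acot4* and *Acsl5*) of 9, where 4.5% of all tested probe sets passed in either direction, 1.76% higher and 2.74% lower. *Acsm3* passed the filter on dim probe sets only through T20 and single high livers of T10 and SI. Its count is therefore a description and is not read against the share of probe sets higher. T10 livers had *Acot2* and *Acot4* lower and none higher, beside 0.322% of probe sets called in either direction and 0.193% lower. S livers had *Acot2*, *Acsl4* and *Acsl5* lower and none higher, with 7.25% of probe sets called in either direction and 4.27% lower. The same 3 genes were lower in SI than in CI, with 11.6% of probe sets called in either direction and 6.14% lower. The labels list identical normalization parameters for C replicate 3 and CI replicate 3. Without both arrays the calls were *Acot2* and *Acsm3* in T20 and none in T10, against C, and the same 3 genes in S against C and in SI against CI. The median difference of the 9 genes was -0.14 for T20, -0.07 for T10 and -0.14 for S against C, and -0.13 for SI against CI. The median over all tested probe sets was -0.01, -0.03, -0.04 and -0.02 in the same comparisons. T20, T10, S and CI were all set against the same 5 C livers, so their differences share the error of those livers.

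**Figure D1:**
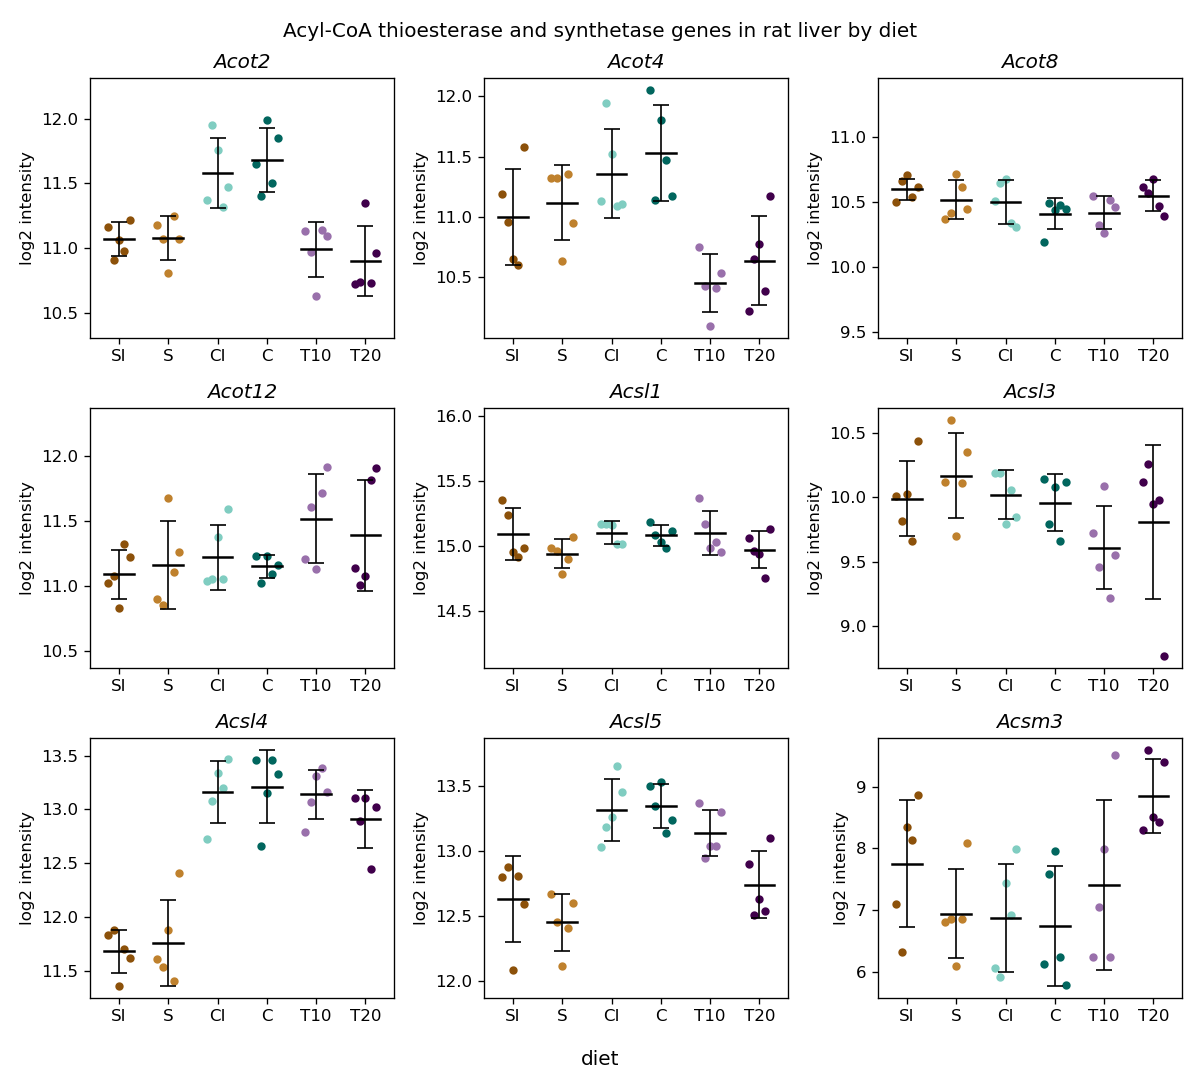
Log2 intensity of each gene's representative probe set in the 30 livers, by diet; points are livers, the long bar is the mean of 5 and the whiskers are 1 SD. *Acot2*, *Acsl4* and *Acsl5* lay lower in both soy protein diets than in both casein diets, *Acsl4* in T10 and T20 lay near its casein level, and all 5 T20 livers lay above all 5 C livers for *Acsm3*. The vertical scales differ between genes.

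**Figure D2:**
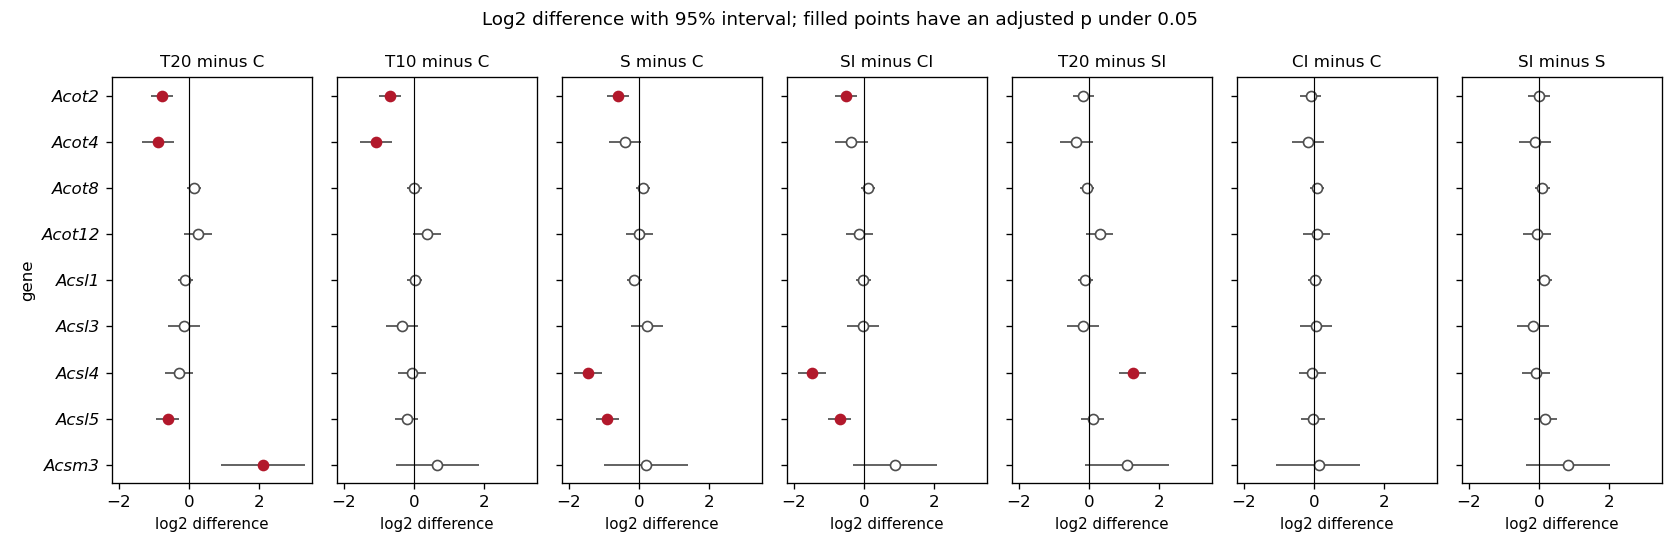
Log2 difference of each gene (rows) in 7 comparisons (panels) with its 95% interval; filled points have a limma adjusted p under 0.05. The lower calls were *Acot2*, *Acot4* and *Acsl5* with T20, *Acot2* and *Acot4* with T10, and *Acot2*, *Acsl4* and *Acsl5* with each soy protein diet. The higher calls were *Acsm3* with T20 against C and *Acsl4* with T20 against SI. *Acsm3* passed the filter on dim probe sets only through T20 and single high livers of T10 and SI, so its point is a description.

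*Acot2* is the mitochondrial thioesterase of long-chain acyl-CoA. It was lower with each tofu and each soy protein diet, by 1.42 to 1.71-fold. Its log2 values in the order of replicates 1 to 5 were 10.72, 10.74, 11.35, 10.73 and 10.96 in T20, against 11.65, 11.40, 11.99, 11.50 and 11.85 in C. In T10 they were 11.13, 10.97, 10.63, 11.14 and 11.09. All 10 tofu livers lay below all 5 C livers, with T20 replicate 3, at 11.35, the nearest. The difference from C was -0.78 ± 0.14 in T20 (adjusted p = 0.00156) and -0.68 ± 0.14 in T10 (adjusted p = 0.0167). S livers read 11.18, 11.07, 10.81, 11.25 and 11.07, all below the C livers, with a difference of -0.60 ± 0.14 (adjusted p = 0.00584). SI livers read 11.16, 10.91, 11.06, 10.98 and 11.22, against 11.37, 11.95, 11.76, 11.32 and 11.47 in CI, again without overlap. That difference was -0.51 ± 0.14 (adjusted p = 0.0155), and it did not pass when arrays were centred on their medians (-0.40 ± 0.15, adjusted p = 0.066). Groups without overlap in either direction made up 4.99% of probe sets for T20, 1.94% for T10 and 7.5% for S against C, and 10.1% for SI against CI. The 6 means ordered as T20, T10, SI, S, CI and C from low to high, and the widest step between neighbours, 0.50, lay between S and CI. Among the 4 lower diets the means spanned 10.90 to 11.08, with a pooled SD of 0.22.

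The T10 call of *Acot2* was close to the threshold. Its adjusted p was 0.0862 without C replicate 3, 0.0622 without C replicate 5, 0.0502 without T10 replicate 2 and 0.0519 without T10 replicate 3. Signal at the 3' end of the GAPDH controls exceeded that at the 5' end 1.32 to 1.58-fold in T10 replicates 3, 4 and 5, against a ratio of 0.97 to 1.25 elsewhere (27 arrays). The actin controls did not set these 3 arrays apart. Their actin ratios were 2.43, 2.37 and 2.35, within the range of the other arrays, 1.84 (CI replicate 2) to 2.89 (CI replicate 5). Without those 3 arrays the *Acot2* difference was -0.63 ± 0.18 (adjusted p = 0.356), from the 2 remaining T10 livers, and the part of RNA quality in it was not tested.

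*Acot2* had 3 more tested probe sets, and their differences from C or CI ran the same way in all 4 of these comparisons. Probe set 1388210_at differed by -0.99 in T20 (adjusted p = 0.00453), and by -0.75 in T10 (0.122), -0.57 in S (0.0812) and, against CI, -0.43 in SI (0.152). Probe set 1384115_at passed in none of them, at -0.44, -0.37, -0.48 and -0.57 in the same order (adjusted p 0.0855 to 0.602). Probe set 1388211_s_at is annotated to both *Acot2* and *Acot1*, the cytosolic thioesterase, so its signal cannot be assigned to either gene. It passed in all 4, at -0.93 in T20 (adjusted p = 0.000992), -0.82 in T10 (0.00995), -0.65 in S (0.00787) and -0.47 in SI (0.0453). The probe set of *Acot1* alone, with a mean of 5.88 over the 30 arrays, fell below the filter level of 7.388 and was not tested.

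**Figure D3:**
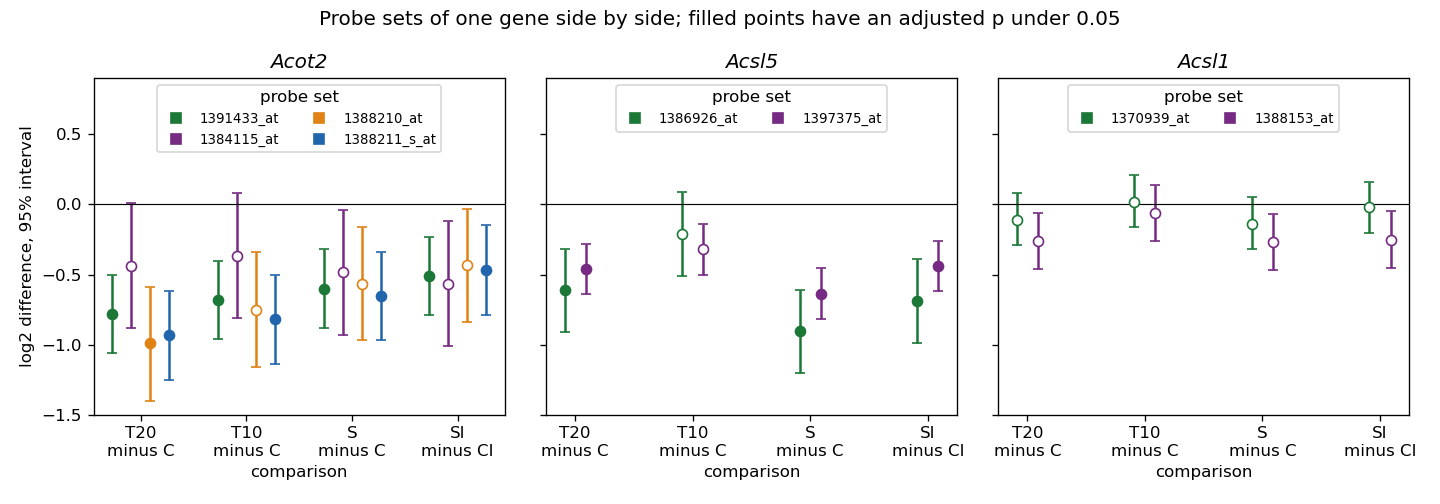
Log2 difference with 95% interval for each tested probe set of *Acot2*, *Acsl5* and *Acsl1* (panels) in 4 comparisons; filled points have a limma adjusted p under 0.05. The *Acot2* probe sets were all below 0 but differed in which comparisons passed, the *Acsl5* probe sets passed in the same 3 comparisons, and neither *Acsl1* probe set passed.

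*Acot4* encodes a thioesterase that is peroxisomal in mouse and hydrolyses succinyl-CoA there. It was lower with tofu, by 1.85-fold in T20 and 2.12-fold in T10. The T20 livers read 10.22, 10.65, 10.78, 10.39 and 11.17, against 12.05, 11.14, 11.80, 11.47 and 11.17 in C. T20 replicate 5 reached the lowest C livers, so these groups overlapped, and the difference was -0.89 ± 0.21 (adjusted p = 0.015). The T10 livers read 10.75, 10.43, 10.10, 10.41 and 10.54, all below the C livers, with a difference of -1.08 ± 0.21 (adjusted p = 0.0136). S livers read 11.32, 11.32, 10.64, 11.36 and 10.95, and their difference from C, -0.41 (95% interval -0.84 to 0.02), did not pass. SI livers read 11.19, 10.96, 10.65, 10.60 and 11.58, against 11.13, 11.94, 11.52, 11.09 and 11.11 in CI, and that difference was -0.36 (-0.79 to 0.07), which did not pass. The T20 livers were not shown to differ from the SI livers either, at -0.36 (-0.79 to 0.07; adjusted p = 0.37). The calls of *Acot4* rested on few livers. For T20 the adjusted p was 0.0503 without C replicate 1, 0.0512 without C replicate 3 and 0.0578 without T20 replicate 1, and it was 0.0642 from the T20 and C arrays alone. For T10 it was 0.0657 without C replicate 1 and 0.0597 without C replicate 3. Without the 3 T10 arrays of high GAPDH 3' to 5' ratio the difference was -0.93 ± 0.29 (adjusted p = 0.412).

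*Acot2* and *Acot4* are neighbours on rat chromosome 6, in RefSeq's order *Riox1*, *Acot2*, *Acot1*, *Rpl23al8*, *Acot4*, *Acot3*, *Acot5*, *Acot6* and *Dnal1*. Their promoters are shown because these were the thioesterases that fell with tofu. Each window runs from 250 bases before to 50 after the gene's start in RefSeq's GRCr8 assembly, chr6:109342590-109342889 on the plus strand for *Acot2* and chr6:109399604-109399903 on the plus strand for *Acot4*. Capitals mark matches to CCAAT or its reverse complement ATTGG, and to AGGTCA, the core motif of nuclear receptors, or its reverse complement TGACCT.
Acot2: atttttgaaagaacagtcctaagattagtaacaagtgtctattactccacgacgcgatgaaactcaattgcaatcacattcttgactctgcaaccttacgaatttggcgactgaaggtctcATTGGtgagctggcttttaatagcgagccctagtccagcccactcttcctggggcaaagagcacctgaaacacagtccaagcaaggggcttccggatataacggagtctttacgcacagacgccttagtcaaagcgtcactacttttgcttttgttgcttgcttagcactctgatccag
Acot4: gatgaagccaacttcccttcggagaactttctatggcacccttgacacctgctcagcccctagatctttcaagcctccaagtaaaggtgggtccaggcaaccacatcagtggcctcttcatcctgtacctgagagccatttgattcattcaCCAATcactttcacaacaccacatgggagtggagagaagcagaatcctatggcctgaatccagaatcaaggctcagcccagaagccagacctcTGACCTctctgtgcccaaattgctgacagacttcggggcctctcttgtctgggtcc
The *Acot2* window had 1 CCAAT match and no AGGTCA match, and the *Acot4* window had 1 of each. On both strands, CCAAT was found in 37.5% and AGGTCA in 16.2% of 33465 RefSeq windows of this length. AGGTCA was also found in the windows of *Acot8*, *Acot12* and *Acsm3*. The direct repeat of that core with 1 base between its copies, searched in a relaxed form and known as the kind of element that PPAR-alpha binds as a dimer, was found in 0.415% of windows and the E-box CACGTG in 6.42%, and neither in any of the 9 genes' windows. The relaxed form let only 1 inner base of each copy and the base between the copies vary. The *Acot4* window holds a near match that this form leaves out. Read on the reverse strand, its marked core match at base -6 is followed, after 1 base, by a copy that differs in its last base only. Near matches of this kind were not counted in the other windows. A match or near match is a description of these letters only.

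The other thioesterases differed less between diets. *Acot8*, a peroxisomal thioesterase of broad chain length, had diet means of 10.41 to 10.60 and a pooled SD of 0.13. Its difference from C was 0.14 in T20 (95% interval -0.04 to 0.32) and 0.01 in T10 (-0.17 to 0.19). *Acot12*, the cytosolic acetyl-CoA hydrolase of liver, did not pass in any comparison. Its T20 livers read 11.14, 11.01, 11.08, 11.82 and 11.91 and its T10 livers 11.21, 11.61, 11.13, 11.72 and 11.92, against 11.23, 11.02, 11.23, 11.09 and 11.16 in C. Replicates 4 and 5 of T10 and T20, at 11.72 to 11.92, lay above all of the other 26 arrays, at 10.83 to 11.68. The difference from C was 0.24 in T20 (-0.12 to 0.61; adjusted p = 0.467) and 0.37 in T10 (0.01 to 0.74; adjusted p = 0.492).

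*Acsl4*, the synthetase that prefers arachidonic acid, had the largest difference between soy protein and casein of the 9 genes. Its S livers read 11.61, 11.53, 11.88, 11.40 and 12.41, against 13.46, 12.66, 13.15, 13.46 and 13.33 in C. Its SI livers read 11.83, 11.88, 11.36, 11.70 and 11.62, against 12.72, 13.08, 13.34, 13.20 and 13.47 in CI. No soy protein liver reached the lowest casein liver, S replicate 5 being the nearest. The differences were -1.45 ± 0.18 for S (2.72-fold lower, adjusted p = 6.75e-06) and -1.49 ± 0.18 for SI (2.80-fold lower, adjusted p = 4.52e-06). On the linear scale the geometric mean intensity was 3480 in S and 3271 in SI, against 9477 in C and 9158 in CI. The calls held whichever array was left out, with differences of -1.61 to -1.35 for S and -1.59 to -1.41 for SI.

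With tofu *Acsl4* did not pass against C. T20 livers read 13.11, 12.89, 13.11, 12.45 and 13.02, and T10 livers 12.79, 13.07, 13.31, 13.38 and 13.16. Both groups overlapped with C, from which T20 differed by -0.30 (95% interval -0.66 to 0.07; adjusted p = 0.363) and T10 by -0.07 (-0.43 to 0.30; adjusted p = 0.93). T20 and SI were matched in isoflavone and in total protein, and were compared directly. All 5 T20 livers lay above all 5 SI livers, by 1.24 ± 0.18 (2.36-fold, adjusted p = 0.000266). *Acsl4* was the only one of the 9 genes called in that comparison, where 3.51% of all probe sets were called in either direction, 1.63% higher, and 2.03% lay higher without overlap. The means ordered as SI, S, T20, T10, CI and C from low to high, and the step of 1.15 between S and T20 was the widest. The other 4 steps were each smaller than the pooled SD of 0.30.

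*Acsl5*, a synthetase of the mitochondrial outer membrane and the endoplasmic reticulum, was lower in T20, S and SI. Its T20 livers read 12.90, 12.51, 12.63, 12.54 and 13.10, against 13.50, 13.35, 13.53, 13.14 and 13.24 in C. All T20 livers lay below all C livers, and the difference was -0.61 ± 0.15 (adjusted p = 0.0146). This call was lost when arrays were given equal median and spread (-0.39 ± 0.14, adjusted p = 0.0818) and without both C replicate 3 and CI replicate 3 (-0.57 ± 0.16, adjusted p = 0.0545). With 1 T20 or C array left out the call still passed, but at limma adjusted p-values from 0.00643 to just under 0.05. S livers read 12.67, 12.45, 12.11, 12.41 and 12.60, a difference from C of -0.90 ± 0.15 (adjusted p = 0.000189). SI livers read 12.80, 12.88, 12.08, 12.81 and 12.59, against 13.03, 13.19, 13.26, 13.66 and 13.46 in CI, a difference of -0.69 ± 0.15 (adjusted p = 0.00277). Neither soy protein group overlapped with its casein group. T10 livers read 13.37, 12.95, 13.04, 13.04 and 13.30 and overlapped with C, at -0.21 (95% interval -0.51 to 0.09; adjusted p = 0.666). T20 against T10 gave -0.40 (-0.70 to -0.11), with an unadjusted p of 0.00946 and an adjusted p of 0.527, so a difference between the amounts of tofu did not pass. T20 and SI were not shown to differ, at 0.10 (-0.19 to 0.40). The second probe set, 1397375_at, gave -0.46 ± 0.09 in T20 (adjusted p = 0.00358), -0.64 in S (4.16e-05) and -0.44 in SI against CI (0.00193). In T10 it gave -0.32 ± 0.09 (adjusted p = 0.149), with all 5 T10 livers below all 5 C livers, at 8.41 to 8.58 against 8.79 to 8.86.

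The promoters of *Acsl4* and *Acsl5* are shown as those of the synthetases that fell with soy protein. The windows are chrX:110803212-110803511 on the minus strand for *Acsl4* and chr1:264294601-264294900 on the plus strand for *Acsl5*, both from RefSeq's GRCr8 and written in the direction of the gene. Neither holds a match to any of the motifs named above on either strand, so no letter is in capitals.
Acsl4: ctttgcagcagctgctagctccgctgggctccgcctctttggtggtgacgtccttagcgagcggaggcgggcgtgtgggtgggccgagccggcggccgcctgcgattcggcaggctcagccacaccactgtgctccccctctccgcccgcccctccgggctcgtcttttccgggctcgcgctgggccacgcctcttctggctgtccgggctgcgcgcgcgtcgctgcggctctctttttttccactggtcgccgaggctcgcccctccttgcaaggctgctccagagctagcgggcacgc
Acsl5: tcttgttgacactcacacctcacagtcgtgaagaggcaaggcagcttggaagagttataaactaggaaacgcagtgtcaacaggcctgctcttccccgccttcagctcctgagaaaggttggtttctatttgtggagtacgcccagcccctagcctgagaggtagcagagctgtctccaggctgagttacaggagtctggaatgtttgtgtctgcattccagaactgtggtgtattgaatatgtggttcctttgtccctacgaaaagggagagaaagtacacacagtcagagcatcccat
The *Acsl4* window was 70.7% G and C and the *Acsl5* window 49.7%, and the median of all windows was 51.7%.

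The remaining long-chain synthetases did not pass in any comparison. *Acsl1*, the main long-chain synthetase of liver, had diet means of 14.94 to 15.10, and its difference from C was -0.11 in T20 (95% interval -0.29 to 0.08) and -0.14 in S (-0.32 to 0.05). Its second tested probe set, 1388153_at, gave -0.26 in T20 (adjusted p = 0.123), with all T20 livers (13.86 to 14.18) below all C livers (14.19 to 14.51). The same probe set gave -0.27 in S (adjusted p = 0.0931) and, against CI, -0.25 in SI (0.0848). The third probe set of *Acsl1*, 1382887_at, with a mean of 6.68, was below the filter and not tested. *Acsl3*, a synthetase of the endoplasmic reticulum and of growing lipid droplets, had means of 9.61 in T10 to 10.17 in S. Its T20 livers read 10.12, 10.26, 9.95, 9.98 and 8.77, replicate 5 lying below every other liver of the study. The difference of T10 from C was -0.35 (-0.78 to 0.08) and that of S from C was 0.22 (-0.21 to 0.65).

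*Acsm3*, a mitochondrial medium-chain synthetase, was dim. Its mean of 7.42 passed the filter level of 7.388 only through T20, where it was high, and single high livers of T10 and SI. Its T20 livers read 8.29, 9.59, 8.50, 8.43 and 9.40, against 6.12, 7.59, 7.96, 6.24 and 5.79 in C, so that the C mean of 6.74 lay below the filter. The groups did not overlap, and the difference was 2.10 ± 0.57 (4.30-fold, adjusted p = 0.0324). The spread within the other diets was wide. T10 livers read 6.24, 7.04, 7.98, 6.24 and 9.51, SI livers 7.10, 6.32, 8.35, 8.13 and 8.87, S livers 6.81, 6.85, 6.09, 6.86 and 8.08, and CI livers 6.06, 5.92, 7.44, 6.92 and 7.98. The T20 livers overlapped with those of T10 and SI. T20 exceeded T10 by 1.44 (95% interval 0.28 to 2.61; adjusted p = 0.603) and SI by 1.09 (-0.08 to 2.25; adjusted p = 0.3), and neither passed. The call against C was lost without C replicate 1 (adjusted p = 0.0762), C replicate 4 (0.0608) or C replicate 5 (0.0867) and with array weights (0.0529). Without T20 replicate 2, 3 or 5, T10 replicate 5 or SI replicate 5 the gene fell below the filter and was not tested. Its promoter window, shown as that of a dim gene whose call was lost without single C livers, is chr1:183564402-183564701 on the plus strand of GRCr8, with CCAAT (or ATTGG) and AGGTCA in capitals.
Acsm3: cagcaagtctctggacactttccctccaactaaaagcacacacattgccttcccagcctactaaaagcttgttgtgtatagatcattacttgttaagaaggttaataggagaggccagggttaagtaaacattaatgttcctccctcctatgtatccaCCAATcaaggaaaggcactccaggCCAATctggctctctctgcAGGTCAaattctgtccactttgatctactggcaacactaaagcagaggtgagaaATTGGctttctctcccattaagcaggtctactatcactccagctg
It held 3 CCAAT matches, at bases -92, -68 and 5 from the start, and 1 AGGTCA match at base -49.

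Added isoflavones were compared within each protein, as CI against C and SI against S. None of the 9 genes passed in either comparison by limma, and none had an unadjusted p under 0.05. Over all tested probe sets 0% passed in each, and 1605 of 18625 for CI and 664 for SI had an unadjusted p under 0.05. The differences of CI from C ranged from -0.17 (*Acot4*, 95% interval -0.60 to 0.26) to 0.13 (*Acsm3*, -1.04 to 1.29). Those of SI from S ranged from -0.18 (*Acsl3*, -0.61 to 0.25) to 0.82 (*Acsm3*, -0.35 to 1.98). For *Acsl4* the intervals were -0.41 to 0.31 for CI against C and -0.45 to 0.27 for SI against S. The interaction, which asks whether isoflavone acted differently on soy protein than on casein, called 0 of 9 genes at an adjusted and 0 at an unadjusted p under 0.05, with 0.0161% of probe sets called. T20 against T10 called 0 of 9 genes by limma, beside 0% of all probe sets. *Acsl5* and *Acsm3* were the genes of the 9 with an unadjusted p under 0.05, as had 1318 of all probe sets.

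Related enzymes outside the 9 were counted on lists chosen with earlier results known: 141 genes on 7 lists, 115 of them tested. Beside the list counts, 4.5% of all tested probe sets were called in either direction for T20, 0.322% for T10 and 7.25% for S against C. The share was 11.6% for SI against CI and 3.51% for T20 against SI. Of 11 other thioesterases, S livers had 4 lower than C and none higher, among them *Baat*, which conjugates bile acids (-0.40 ± 0.10, adjusted p = 0.00915), and *Acot13* (-0.62 ± 0.17, adjusted p = 0.0259). SI livers had *Baat* (-0.34 ± 0.10, adjusted p = 0.0206) and *Acot13* (-0.62 ± 0.17, adjusted p = 0.0213) lower than CI. T20 livers had the lysosomal thioesterase *Ppt1* higher than C (0.33 ± 0.08, adjusted p = 0.0173) and fatty acid synthase, *Fasn*, whose last domain is a thioesterase, lower (-1.99 ± 0.47, adjusted p = 0.0144). T10 livers had 0 called by limma, and 3 with an unadjusted p under 0.05. *Baat* was higher in T20 than in SI, by 0.52 ± 0.10 (adjusted p = 0.00374), without overlap. *Acot3*, next to *Acot4* on the chromosome, gave -0.35 in T20 (adjusted p = 0.198) and -0.56 in T10 (0.147).

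Of 13 other synthetases, 0 passed limma's test against C in T20, where 4 had an unadjusted p under 0.05, and 0 in T10, where 0 did. S livers had 2 higher and 5 lower than C, and SI livers 1 higher and 3 lower than CI. Acetoacetyl-CoA synthetase, *Aacs*, which uses ketone bodies for lipid synthesis, differed by -1.10 ± 0.19 in S (adjusted p = 0.000532) and -0.98 ± 0.19 in SI (adjusted p = 0.0015). *Acss3*, a mitochondrial short-chain synthetase, differed by -0.53 ± 0.13 in S (adjusted p = 0.0112) and -0.68 ± 0.13 in SI (adjusted p = 0.00128). *Slc27a2*, a very long-chain synthetase, differed by -0.37 ± 0.10 in S (adjusted p = 0.0224) and -0.44 ± 0.10 in SI (adjusted p = 0.00503). *Acsf2* was lower in S than in C (-0.74 ± 0.16, adjusted p = 0.00454) and higher in T20 than in SI (0.58 ± 0.16, adjusted p = 0.0444). The list's median was -0.25 in S against C, beside -0.04 over all tested probe sets, and 0 in T20 against C, beside -0.01.

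Of 18 genes of CoA supply and acyl-CoA binding, the acyl-CoA binding protein *Dbi* was lower in T20 (-0.38 ± 0.08, adjusted p = 0.00771), in S (-0.56 ± 0.08, adjusted p = 8.23e-05) and, against CI, in SI (-0.59 ± 0.08, adjusted p = 3.89e-05), each time without overlap. *Vnn1*, which hydrolyses pantetheine, was higher in S than in C (0.84 ± 0.16, adjusted p = 0.0011). *Acbd4*, an acyl-CoA binding protein of peroxisomes, was lower in S than in C (-0.40 ± 0.11, adjusted p = 0.0174) and higher in T20 than in SI (0.52 ± 0.11, adjusted p = 0.00715). *Ppcdc*, of coenzyme A synthesis, was higher in SI than in CI (0.25 ± 0.07, adjusted p = 0.0224).

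Of 21 genes of mitochondrial oxidation, T20 had 1 lower than C, S had 3 lower, and SI had 1 higher and 4 lower than CI. Over all tested probe sets, 4.5% were called for T20, 7.25% for S and 11.6% for SI in these comparisons. The isomerase *Eci2* differed by -0.29 ± 0.08 in S (adjusted p = 0.0171) and -0.30 ± 0.08 in SI (adjusted p = 0.00973), and *Decr1* by -0.52 ± 0.12 in SI (adjusted p = 0.00571). *Acaa2*, the thiolase, was lower in T20 than in SI (-0.51 ± 0.08, adjusted p = 0.00112). Of 16 peroxisomal genes, T20 had 1 higher than C (*Amacr*, 0.54 ± 0.13, adjusted p = 0.0186), S had 3 lower, and SI had 4 lower than CI. *Decr2* differed by -0.65 ± 0.14 in S (adjusted p = 0.00379) and *Hsd17b4*, the peroxisomal bifunctional enzyme, by -0.36 ± 0.08 (adjusted p = 0.00686).

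Of 16 other PPAR-alpha targets, T20 had 2 lower than C and S and SI had 1 lower each. These counts stand beside 4.5%, 7.25% and 11.6% of all tested probe sets called. *Pdk4*, which restrains pyruvate oxidation, differed by -1.48 ± 0.30 in T20 (adjusted p = 0.00448), -1.07 ± 0.30 in S (adjusted p = 0.024) and -1.62 ± 0.30 in SI against CI (adjusted p = 0.000736). *Angptl4*, an inhibitor of lipoprotein lipase, differed by -1.25 ± 0.23 in T20 (adjusted p = 0.00203). Of 21 genes of fatty acid and triglyceride synthesis, which *Acsl* enzymes also supply, 11 were lower and none higher in T20, 3 lower in T10, and 8 lower and 1 higher in S, each against C, and 4 lower and 1 higher in SI against CI. *Me1*, malic enzyme, differed by -1.76 ± 0.19 in T20 (adjusted p = 3.09e-06) and -1.05 ± 0.19 in T10 (adjusted p = 0.0062). Of the 115 genes, limma called 0 in CI against C, 0 in SI against S and 0 in T20 against T10, where 5, 1 and 11 had an unadjusted p under 0.05.

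**Figure D4:**
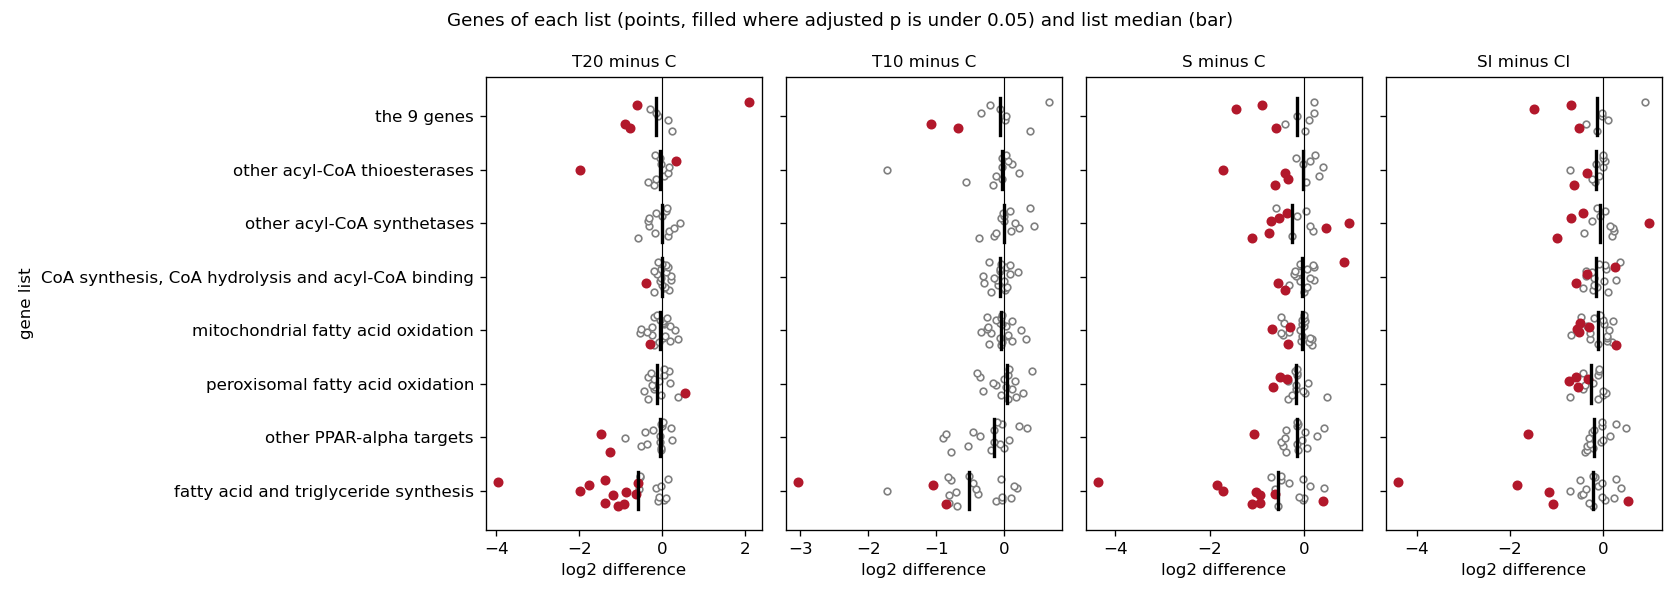
Log2 difference of every tested gene of the 9 and of 7 other lists in 4 comparisons (panels); filled points have a limma adjusted p under 0.05 and the black bar is the list median. The horizontal scales differ between panels. The medians of fatty acid and triglyceride synthesis, -0.59 in T20, -0.52 in T10 and -0.55 in S, lay farther from 0 than that of the 9 genes, -0.14, -0.07 and -0.14. In SI against CI the 2 medians lay closer together, at -0.22 and -0.13.

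The genes nearest in pattern were found by the root mean square difference of array values, each gene centred on its own mean over the 30 arrays, among 10698 other genes; this is a description with no test. For *Acot4* the nearest was *Acot2* (0.30 on the log2 scale), then its neighbour *Acot3* (0.32) and the lipid droplet protein *Plin3* (0.33), where *Acot4* itself varied by 0.49 around its mean. The difference of *Plin3* from C was -0.95 ± 0.13 in T10 and -0.58 ± 0.13 in T20. The nearest genes were picked on these same values, so such differences follow in part from that choice. For *Acot2*, which varied by 0.36, the nearest were *Smyd2* (0.22), *Parvb* (0.23) and *Pgrmc2* (0.24). For *Acsl4*, which varied by 0.71, they were *Rnase4* (0.34), ceruloplasmin, *Cp* (0.34), and *Smim14* (0.37). The difference of *Rnase4* was 0.98 ± 0.17 for T20 against SI and -0.80 ± 0.17 for S against C. For *Acsl5*, which varied by 0.41, they were *Ankrd44* (0.22), the cytochrome *Cyp2c7* (0.22) and *Nab1* (0.23). All arrays share 1 normalization, and the likeness includes what the arrays share.

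Markers of other cells were read in the same arrays. Of 58 listed markers 52 were named on the array, 34 were tested and 18 lay below the filter, among them the adipocyte markers *Adipoq*, *Plin1* and *Lep* and 5 of 6 of exocrine pancreas. Beside the T20 and T10 calls, the summed intensity of 7 macrophage markers was 18265 to 24613 in T20 and 18382 to 22928 in T10, against 17316 to 18790 in C, with 1 of 7 (*Cd14*) called in each. The median difference of the 7 from C was 0.03 in T20 and 0.02 in T10. In CI their sum was 12676 to 17161, below C, with 0 called. That of 4 endothelial markers was 10847 to 12720 in T20 and 11356 to 11919 in T10, against 9792 to 11276 in C, with *Lyve1* called in T20. The sum of 6 exocrine pancreas markers was 2687 to 6178 in T20 and 3047 to 4470 in T10, against 2355 to 2908 in C, and 1577 to 2468 in SI, against 2613 to 4203 in CI. The tested marker of these, *Cela1*, was higher in T20 than in C (0.68) and in SI (1.13), and lower in SI than in CI (-0.68). At a mean intensity of 2355 *Cela1* made up most of that sum, and the other 5 markers lay at 87 to 165. The sum of 5 kidney and intestine markers was 737 to 1133 in T20 and 770 to 968 in T10, against 958 to 1404 in C, and 719 to 930 in SI, against 1028 to 1300 in CI, with 1 of 3 tested (*Fabp2*) lower in each. The median difference of the 3 tested was 0.14 in T20 and 0.20 in T10 against C, so with tofu the others were higher. Against CI it was -0.21 in SI. Of 6 stellate cell markers *Rgs5* was higher in T20 than in C and in SI, with a sum of 15128 to 17747 in T20, against 15302 to 17634 in C and 13936 to 20120 in SI. *Cd14* was also higher in T20 than in SI. Beside the soy protein calls, the adipocyte sum was 4780 to 5618 in S, against 3948 to 4579 in C, with *Cidea* called. *Cidec*, at a mean intensity of 2819, was the largest part of that sum. The hepatocyte sum was 412033 to 515145 in SI, against 400696 to 450848 in CI, with 2 of 8 markers higher (*Serpina1* and *Cyp2e1*). Over all tested probe sets, 4.5% were called for T20, 0.322% for T10 and 7.25% for S against C. For SI against CI 11.6% were called, and for T20 against SI 3.51%. The part of other cells in the results above was not tested.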

How the data were processed

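Liver RNA of 30 rats was labelled with biotin and read on 1-colour Affymetrix arrays, 1 per animal, and the labels call the 5 arrays of a diet biological replicates. The deposited values are linear intensities, 1 for each probe set of an array, which the authors normalized with SuperNORM per the labels. The return to a linear scale and the reference level are not given in the sources used here, and folds are relative to that scale. The labels list identical normalization parameters for C replicate 3 and CI replicate 3. Their values correlated at 0.9524, below the highest pair of arrays (0.9717), so both were kept as separate samples. A deposited text describes p-values of the authors that were not used here.

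Of 31099 probe sets 57 controls were left out. Of the others, 20826 had 1 gene symbol in the platform annotation, 436 several and 9780 none. Intensities under a floor of 16 were set to it before log2 was taken, and probe sets with a mean above the 40th percentile (7.388, intensity 167.6) were tested. A single limma model (version 3.58.1, R 4.3.3) held the 6 diet means, with a mean-variance trend and 24 residual degrees of freedom. Its two-sided p-values were adjusted by Benjamini-Hochberg over the tested probe sets, separately for each of 9 comparisons and for the F test, at a threshold of 0.05. The code was tested on simulated data.

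The 9 genes and all gene and marker lists were chosen with earlier results of these data known. All 9 are named; from each other list, up to 4 genes of smallest F-test p among those passing in any comparison are named, and others where a sentence turns on them (*Acot1* and *Acot3*, for their place beside *Acot2* and *Acot4*, chosen after their values were seen). For genes passing the F test, the 3 nearest in pattern are named. List genes not named on the array were not analysed here. Promoters are RefSeq windows of GRCr8, found for all 9 genes. Replicate numbers were not treated as pairs. Deviations of same-numbered arrays of different diets correlated at -0.28 to 0.35 (median 0.05, with 22 of 75 pairs over 0.1). Those of different numbers correlated at -0.37 to 0.40 (median -0.01, with 50 of 300 over 0.1). Whether equal numbers shared a batch was not tested. Alternatives covered scaling, floors of 1 and 64, filters, variance models, probe set averaging, a replicate block and left-out arrays.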

Additional observations from a re-analysis of the deposited data

Results flagged for a closer look

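Within each diet, the 9 genes were examined for 1 liver standing apart from the other 4, over 54 groups of 5, of which chance alone would mark about 1 in 20. *Acsl3* in T20 replicate 5 was 8.77, and 9.95 to 10.26 in the other T20 livers. *Acot8* in C replicate 1 was 10.19, and 10.44 to 10.49 in the other C livers. *Acsl3* and *Acot8* did not pass in any comparison.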

How the results depend on the processing

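Over 81 gene and comparison results and 44 other settings, 1970 of 1995 values kept their side of the threshold and 25 kept their direction but no longer passed. No difference that passed changed sign under a setting run. Of the differences that did not pass, 25 changed sign in 76 values, such as *Acsl1* in T20 against C (-0.11, and up to 0.22) and *Acsl3* there (-0.14, and up to 0.12). The calls of *Acot2* in T20 and S, of *Acsl4* in S, SI and T20 against SI, and of *Acsl5* in S and SI passed under every setting run. For T10 against C, the number of the 9 genes called was 1 with equal median and spread, 1 from the compared groups alone and 1 from the mean of a gene's probe sets (*Acot4* each time). It was 0 without both C replicate 3 and CI replicate 3, 0 without T10 replicates 3, 4 and 5, and 0 to 2 with 1 array left out; without C replicate 3 it was 0. For T20 against C it was 2 without both C replicate 3 and CI replicate 3 (*Acot2* and *Acsm3*) and 2 to 4 with 1 array left out. Without C replicate 1 it was 2. Wherever *Acsm3* is counted here and below, it is a description only, since it passed the filter only through its high livers. Settings that leave arrays out have fewer livers by construction; the cause of the losses was not tested. With the replicate number as a block, 4 genes were called for T20, 2 for T10 and 3 for S against C and 3 for SI against CI, and *Acsm3* joined the F test (5 genes); 8 of 30 arrays correlated best with their own number. The count over all probe sets was 389 to 1029 for T20, 27 to 70 for T10 and 900 to 1306 for S against C, 1358 to 2222 for SI against CI and 228 to 1026 for T20 against SI with 1 array left out. From the compared groups alone it was 225 for T20 against C and 38 for T20 against SI. *Acsm3*, near the filter level, was not tested under the 60th percentile filter or without T10 replicates 3, 4 and 5. It was also not tested without T20 replicate 2, 3 or 5, T10 replicate 5 or SI replicate 5.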
